A study of Mus musculus with 14 samples.

Results

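The interval chr9:40800001-42200000 of the mouse genome (build mm10, GRCm38.p6) holds the protein-coding genes Ubash3b and Sorl1, with the noncoding transcripts that carry the miR-100, let-7a-2 and miR-125b-1 hairpins between them. Its members are the putative enhancers and the H3K4me3 peaks whose centre lies in the interval. They number 63 of 32965 enhancers and 18 of 25431 peaks. The interval was selected on the density of enhancers in the same list, so its enhancer counts are a description and were not tested.

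H3K4me3 was measured by ChIP-seq in iMEF cells, immortalized mouse embryo fibroblasts with floxed Ash2l alleles (Ash2l fl/fl) and an inducible Cre-ER recombinase. By the study's methods exon 4 of the endogenous Ash2l had been deleted in the clones used, so that untreated cells carried the deletion too, and the only source of the protein was human ASH2L tagged with FKBP12F36V and delivered by a lentiviral vector. By the study's figure legend the ChIP-seq of histone marks used 1 clone, NG3. Cells were untreated or received dTAG, which directs the fusion protein to an E3 ubiquitin ligase for degradation, for 30 min, 2 h, 4 h, 8 h or 16 h, with 2 libraries each and 2 input libraries. The files analysed hold positions only. Peaks were pooled over all samples, and enhancers were defined in control cells. Values therefore have no replicate error, and changes in H3K4me3 after dTAG were not analysed here. As a check of the cell type, 8 of 8 fibroblast markers, among them Col1a1, Thy1, Pdgfra and Twist2, had a peak within 1 kb of a transcription start site (TSS). None of the 6 markers of other cell types had one, namely Cd3e, Ptprc, Cdh5, Krt5, Pou5f1 and Neurod1. Of all coding genes 59.1% had such a peak.

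H3K4me3 is deposited by KMT2 and SETD1 methyltransferase complexes, of which ASH2L is a core subunit, and marks active promoters. Active enhancers usually carry H3K4me1 and H3K27ac instead, and the putative enhancers were defined by both marks together with accessible chromatin, outside 1 kb of known promoters. Ubash3b encodes a tyrosine phosphatase of the TULA family that dampens receptor signalling. Sorl1 encodes a sorting receptor with a VPS10 domain that carries proteins between the Golgi and endosomes. The miRNAs of the locus belong to 3 families that occur together at several places in vertebrate genomes, and let-7 is known for repressing mRNAs of growth and stem cell factors.

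The mature miRNAs are shown because all 3 families recur in the clusters on chromosomes 16 and 17 that are compared at the end. Sequences are from RefSeq (GRCm38.p6), and capitals mark the seed, bases 2 to 8. The let-7a-5p sequence was listed under Mirlet7a-1 on chromosome 13, since only let-7a-2-3p was listed under Mirlet7a-2.
miR-100-5p: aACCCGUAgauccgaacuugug
miR-99a-5p: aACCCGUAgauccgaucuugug
miR-99b-5p: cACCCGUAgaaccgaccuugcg
let-7a-5p: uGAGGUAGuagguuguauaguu
let-7c-5p: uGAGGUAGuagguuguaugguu
let-7e-5p: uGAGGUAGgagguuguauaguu
miR-125b-5p: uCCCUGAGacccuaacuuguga
miR-125a-5p: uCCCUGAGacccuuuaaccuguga
Within each family the seeds were identical. Counted from the 5′ end, miR-99a-5p differed from miR-100-5p by A16U, let-7c-5p from let-7a-5p by A19G and let-7e-5p from let-7a-5p by U9G. The miR-99b-5p sequence differed from miR-100-5p at 4 positions, A1C, U11A, A16C and U21C. The chromosome 16 cluster yields the same miR-125b-5p.

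The start sites of Ubash3b, Sorl1 and the miRNA host gene are shown next, since their CpG content differed widely. Each window holds 250 bases before and 50 after a TSS, read in the direction of the gene, with CpGs in capitals.
Ubash3b, RefSeq start, chr9:41158013-41158312 (minus strand): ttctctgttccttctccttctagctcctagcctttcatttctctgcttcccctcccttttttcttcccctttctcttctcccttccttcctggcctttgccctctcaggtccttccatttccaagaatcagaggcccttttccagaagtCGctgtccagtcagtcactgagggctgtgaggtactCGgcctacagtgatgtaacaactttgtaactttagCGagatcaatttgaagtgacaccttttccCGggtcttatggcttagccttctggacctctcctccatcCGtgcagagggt
Ubash3b, start inside the peak, chr9:41157453-41157752 (minus strand): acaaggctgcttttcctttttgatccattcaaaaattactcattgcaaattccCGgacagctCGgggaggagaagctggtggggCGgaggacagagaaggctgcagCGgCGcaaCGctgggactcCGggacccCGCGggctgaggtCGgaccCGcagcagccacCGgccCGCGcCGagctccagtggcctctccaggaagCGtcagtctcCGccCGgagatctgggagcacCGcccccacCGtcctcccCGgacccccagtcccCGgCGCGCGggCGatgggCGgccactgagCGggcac
Sorl1, chr9:42124248-42124547 (minus strand): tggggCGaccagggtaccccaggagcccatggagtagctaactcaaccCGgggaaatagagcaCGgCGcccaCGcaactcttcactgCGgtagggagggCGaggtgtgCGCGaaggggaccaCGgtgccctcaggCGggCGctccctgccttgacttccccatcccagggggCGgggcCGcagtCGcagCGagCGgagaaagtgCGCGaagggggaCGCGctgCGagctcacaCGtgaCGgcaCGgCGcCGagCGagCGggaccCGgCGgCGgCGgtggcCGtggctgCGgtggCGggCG
Mir100hg, first start, chr9:41376276-41376575 (plus strand): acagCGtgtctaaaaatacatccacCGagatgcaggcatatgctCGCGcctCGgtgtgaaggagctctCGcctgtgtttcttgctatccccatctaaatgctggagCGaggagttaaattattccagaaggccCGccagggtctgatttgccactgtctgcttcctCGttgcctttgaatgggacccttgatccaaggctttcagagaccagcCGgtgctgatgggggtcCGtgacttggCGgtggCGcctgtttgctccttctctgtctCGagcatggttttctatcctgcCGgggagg
Mir100hg, second start, chr9:41474643-41474942 (plus strand): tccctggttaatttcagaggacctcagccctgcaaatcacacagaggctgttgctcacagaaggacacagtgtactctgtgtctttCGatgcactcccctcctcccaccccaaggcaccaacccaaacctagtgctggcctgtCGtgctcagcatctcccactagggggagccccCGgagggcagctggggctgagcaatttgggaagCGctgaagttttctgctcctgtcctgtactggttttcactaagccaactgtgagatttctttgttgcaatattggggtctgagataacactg
Mir100hg, last start, chr9:41581003-41581302 (plus strand): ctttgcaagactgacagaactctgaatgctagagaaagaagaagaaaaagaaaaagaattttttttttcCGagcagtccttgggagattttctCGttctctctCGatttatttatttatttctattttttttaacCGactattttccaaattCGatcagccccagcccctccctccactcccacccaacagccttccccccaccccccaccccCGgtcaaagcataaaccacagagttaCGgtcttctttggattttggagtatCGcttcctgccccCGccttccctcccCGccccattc
The Sorl1 window held 37 CpGs, with a GC content of 72.3%, and 1 GC box (GGGCGG on either strand). The RefSeq window of Ubash3b and the first and second Mir100hg windows held 0 GC boxes. In the inner Ubash3b and last Mir100hg windows GC boxes were not counted, but both printed sequences contain the motif. The window at the inner Ubash3b start held 28 CpGs, while that at the start listed for Ubash3b in the RefSeq promoter set, further upstream, held 5. RefSeq transcripts of Ubash3b have other starts too, 1 of them inside the peak, at 41157315. The first Mir100hg window held 15, the second 4 and the third 10. Over 32851 RefSeq promoter windows of the same length the median was 7 CpGs, with quartiles of 3 and 20, and 35.7% held a GC box.

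Enhancers were unevenly spread over the interval. The density was 45 per Mb, against 12.9 per Mb on chromosome 9 and 12.1 per Mb on chromosomes 1 to 19, X and Y, and the 63 enhancers covered 37.1 kb. Of 26974 windows of this length placed every 100 kb, 151 (0.56%) held more enhancers, 7 of which overlapped the interval. The median window held 15. The first enhancer outside the interval lay at chr9:40768380-40768636 on the left and at chr9:42206310-42206650 on the right. The outermost enhancers inside were chr9:40806716-40807132 and chr9:42183147-42183671.

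Most of them lay between the coding genes. Between the 5′ end of Ubash3b and the 3′ end of Sorl1 the GENCODE annotation places 0 coding genes over 803 kb, and this stretch held 56 of the 63 enhancers (88.9%). The Ubash3b gene itself (150.6 kb, minus strand) held 3 enhancers, all intronic, or 1.99 per 100 kb. The Sorl1 gene (159.6 kb, minus strand) held 1, or 0.627 per 100 kb. The stretch from Ubash3b to the host gene held 6, at 3.63 per 100 kb. The host gene 3110039I08Rik held 26, at 6.67 per 100 kb, and the 247.7 kb from its end to Sorl1 held 24, at 9.69 per 100 kb. The density thus rose over these 5 stretches, counting the 0.474 per 100 kb left of Ubash3b as the first, and was lower in Sorl1. Within the last stretch it was not even, since the bin of 100 kb that reaches the 3′ end of Sorl1 held 5 enhancers.

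In bins of 100 kb the highest counts were 11, 10 and 11 enhancers, in the 3 consecutive bins from 41.6 to 41.9 Mb. No H3K4me3 peak lay in these bins, which held 32 enhancers. The peak-free stretch around them, chr9:41586130-41951339, was 365 kb long and held the centres of 38 enhancers, 36 of which lay wholly inside it. Across all chromosomes, 8 of 25333 stretches between neighbouring peaks held more enhancers. The median stretch held 0 and the richest 75. These counts were not adjusted for the length of a stretch, and this one lies in an interval selected for its enhancers. The longest stretch without an enhancer was chr9:40807133-41020233, 213 kb that include Bsx, a brain homeobox factor, Jhy, a protein of cilia, and Crtam, a membrane receptor of lymphocytes. None of these 3 genes had a peak or an enhancer in its body.

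**Figure D1:**
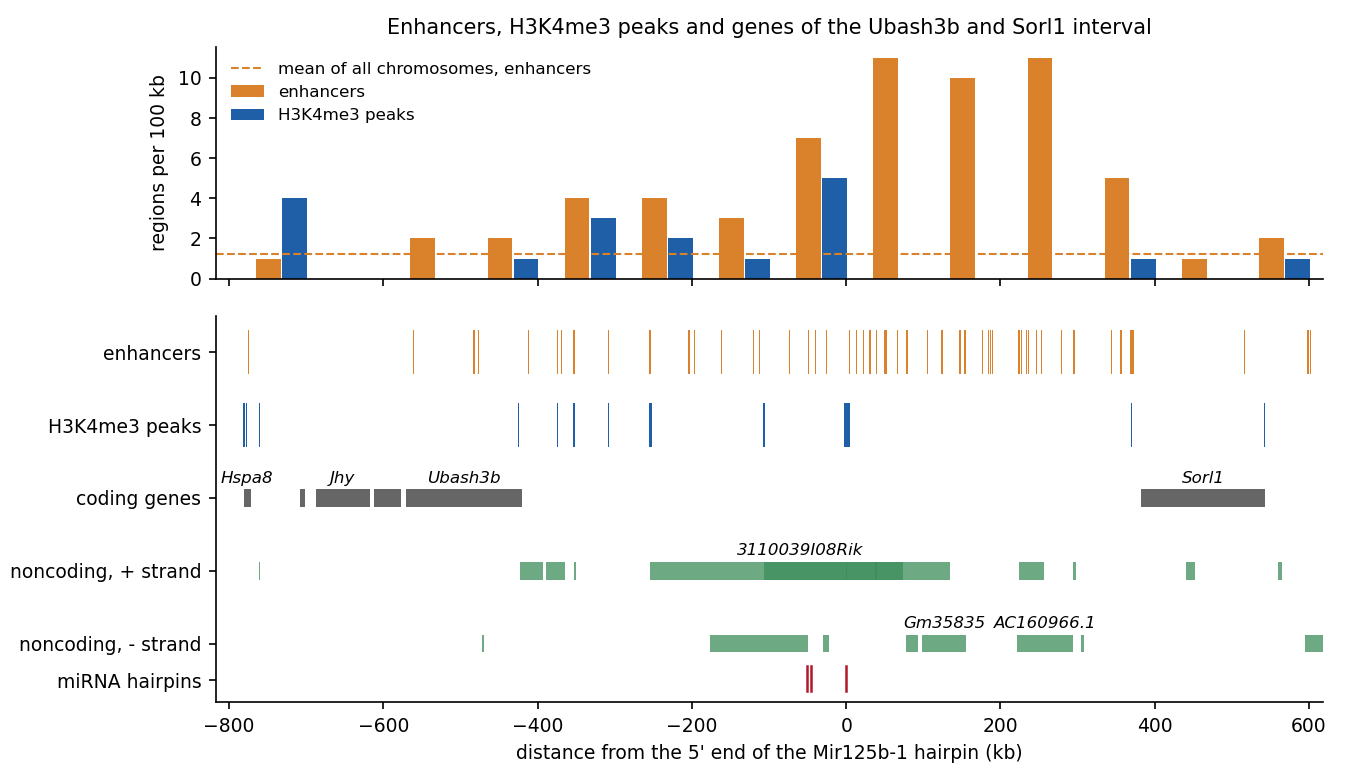
Top, enhancers (orange) and H3K4me3 peaks (blue) per 100 kb, with the mean of all chromosomes for enhancers as a dashed line. Bottom, positions of enhancers, peaks, coding genes (grey), noncoding genes (green, by strand) and the 3 miRNA hairpins (red), against distance in kb from the 5′ end of the Mir125b-1 hairpin, with marks under 1.5 kb drawn at that width. The 3 bins with 11, 10 and 11 enhancers have no peak.

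Joined across gaps of up to 12.5 kb, the enhancers formed 15 clusters of 2 or more and left 11 single. The clusters held 52 enhancers. Gaps of up to 5 kb gave 42 clusters and singles in place of 26, and gaps of up to 25 kb gave 17. The largest had 8 enhancers each, at chr9:41585899-41634033 in the 3′ part of the host gene and at chr9:41805090-41834907 over Gm35940. Across all chromosomes 7595 clusters had 2 or more members, 95 had at least 8 and the largest had 17. The median gap between neighbouring enhancers of the interval was 8.85 kb, and 10 of 62 gaps were under 1 kb.

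Enhancer widths ranged from 80 to 2080 bp with a median of 490 bp, beside 405 bp over all enhancers. The widest, chr9:41950052-41952131, lay in no gene, on the 3′ side of Sorl1, and 0.431% of all enhancers were wider. The next was chr9:41734951-41736772 (1822 bp), 1.52 kb from a start of Gm35835, with 7.57% of its bases in an exon. The third, chr9:41859842-41861553 (1712 bp), was intronic in AC160966.1. The fourth, chr9:42098074-42099435 (1362 bp), was the only enhancer in Sorl1 and lay 24.9 kb inside the gene from its marked start, 9.25% exonic. The fifth, chr9:41469426-41470585 (1160 bp), was intronic in the host gene, 4.24 kb upstream of its second marked group of starts.

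To place the enhancers relative to genes, each was assigned by its centre to a gene body and to the nearest start of a coding and of a long noncoding gene. Only 5 (7.94%) lay in a coding gene body, where 51.8% of all enhancers lay. In contrast 46 (73%) lay in the body of a long noncoding gene alone, where 7.39% of all enhancers lay, and the other 12 lay in neither. The host gene alone spans 389.9 kb of the 803 kb between Ubash3b and Sorl1. The share of the interval's bases in long noncoding genes was not computed. The contrast therefore describes the annotation of the locus as well as its enhancers. With RefSeq transcripts, which split or shorten several of these genes, 35 were in noncoding gene bodies and 24 in neither. Of the 63 enhancers 49 had 0 exonic bases and 6 were over 50% exonic. The Wilson 95% confidence interval of the noncoding share, 61 to 82.4%, covers counting error only.

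Distances, which likewise depend on how many starts are annotated at the locus, showed the same order. The median distance was 203 kb to the nearest start of a coding gene and 12.6 kb to that of a long noncoding gene, beside 26.05 and 57.82 kb over all enhancers. In total 45 enhancers (71.4%) were over 100 kb from a coding start, as were 20.4% of all enhancers. A noncoding start was the nearer for 55 of 63 (87.3%), as for 35.9% of all enhancers. The nearest coding gene was Sorl1 for 42, Ubash3b for 19 and Crtam and Hspa8 for 1 each. Many of the Sorl1 distances ran to short transcripts that GENCODE starts near the 3′ end of the gene, such as at 41974587. With only the outermost 5′ end of each gene the median coding distance was 308.3 kb. With RefSeq it was 144.5 kb, since a predicted coding gene, Gm40514, then was nearest for 41 enhancers. Measured to starts within 1 kb of a peak, the medians were 312 kb for coding and 123 kb for noncoding starts, and Sorl1 was the nearest marked coding gene for 34 enhancers, Ubash3b for 28 and Hspa8 for 1.

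**Figure D2:**
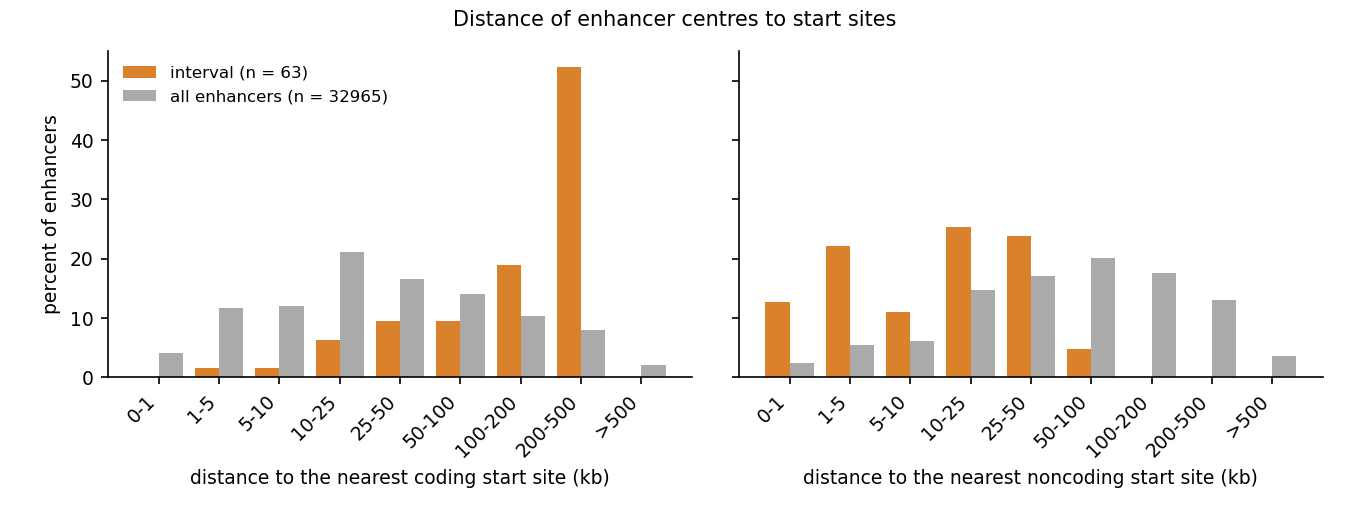
Percent of enhancers (y axis) by distance in kb from the enhancer centre to the nearest start of a coding gene (left) and a long noncoding gene (right), for the 63 enhancers of the interval (orange) and all 32965 (grey). The interval's enhancers are most frequent at 200 to 500 kb from a coding start, with 52.4%, and 0% are over 100 kb from a noncoding start.

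Of the 63 enhancers 8 (12.7%) were centred within 1 kb of a noncoding start, beside 2.44% of all enhancers. They lay at starts of Gm48710, of 3110039I08Rik (2 enhancers), of Gm48742, of Gm35940 and AC160966.1 (3 enhancers) and of Gm48814. By RefSeq starts the count was 3. No enhancer of the interval was centred within 1 kb of a coding start, beside 4.13% of all enhancers. A low share was set by the definition of enhancers, which left out 1 kb around known promoters.

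H3K4me3 peaks were less concentrated than enhancers. The 18 peaks amounted to 12.9 per Mb, beside 9.3 per Mb over the chromosomes, and 24.5% of the windows of this length held more peaks. Their widths ranged from 200 bp, the smallest width in the list, to 3182 bp, with a median of 642 bp, beside 683 bp over all peaks. By their centres 5 peaks (27.8%) lay within 1 kb of a coding start, as did 65.4% of all peaks, and 6 (33.3%) within 1 kb of a noncoding start, as did 10.8%. The other 7 lay beyond 1 kb of any start. These counts depended on the starts used, since 2 peaks were near a noncoding start with RefSeq and 2 near a coding start with 1 start per gene. Of the 18 peaks 10 were at least 500 bp wide. The nearest peaks outside were chr9:40757069-40757851 and chr9:42262219-42262564.

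The coding genes with a peak were Hspa8, Ubash3b and Sorl1, that is 3 of 6, and 59.1% of all coding genes had one. Ubash3b had a single peak, chr9:41156759-41157853 (1095 bp), which contains its start at 41157502 and ends 209 bp short of the start at 41158062. Of its 6 start positions 2 were within 1 kb of this peak, and the outermost, at 41161697, was 3844 bp away. The peak held 101 CpGs at an observed to expected ratio of 0.81. The enhancer nearest to a start of Ubash3b, chr9:41169631-41170506, was 7.93 kb upstream of the gene, in an intron of the noncoding gene Gm35657 on the opposite strand.

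Sorl1 also had a single peak, chr9:42123505-42124602 (1098 bp), over its start at 42124297, with 98 CpGs at a ratio of 0.806. Its 3 other GENCODE starts, all near the 3′ end of the gene, had none within 1 kb. The Ubash3b and Sorl1 peaks were thus alike in width and CpG content and the most CpG-rich of the 18. Hspa8, a constitutively expressed chaperone at the left edge of the interval, had 3 peaks, of 743, 1879 and 645 bp, and its 9 starts all lay within 1 kb of one.

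By GENCODE the miRNA host gene had the most peaks within 1 kb of its starts, 4, beside 3 for Hspa8. By RefSeq it and Hspa8 had 2 each. GENCODE joins the host transcripts as 3110039I08Rik (chr9:41327077-41716994, plus strand, 40 start positions), and RefSeq lists the shorter Mir100hg (chr9:41376526-41615185, 3 start positions). Of the 40 start positions 27 lay within 1 kb of a peak and 17 inside one. The most 5′ group, 6 starts from 41327077 to 41328766, lay within 1 kb of peaks of 304 and 639 bp that both overlap an enhancer, and the start at 41328766 was inside the wider of them. The next group, 8 starts from 41376309 to 41376561, was 47184 to 47436 bp from the nearest peak. It includes the first RefSeq start of Mir100hg, whose window above holds 15 CpGs. The third group, 8 starts from 41474829 to 41475060, lay at the edge of a peak of 936 bp (chr9:41474901-41475836), which extends downstream. A further 13 starts, from 41579494 to 41581361, all lay inside the widest peak. The remaining 5 starts had no peak within 1 kb.

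The widest peak, chr9:41579388-41582569 (3182 bp), contains the Mir125b-1 hairpin at chr9:41581926-41582002. Of all peaks 1.08% were wider. It was followed downstream by 4 smaller peaks of 308, 747, 200 and 328 bp. These 5 peaks spanned 6.74 kb and covered 4765 bp, or 33.2% of all peak bases in the interval. Their CpG ratios, from 0.186 to 0.416, were below those of Ubash3b and Sorl1. The other hairpins of the cluster were not near a peak. Mir100 (chr9:41531425-41531504) was 47.9 kb and Mirlet7a-2 (chr9:41536716-41536811) 42.6 kb from the same wide peak.

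Mir100 and Mirlet7a-2 lay closer to an enhancer than to a peak, while Mir125b-1 lay inside a peak. The nearest enhancer was 901 bp downstream of Mir100 (chr9:41532405-41533240), 2.89 kb upstream of Mirlet7a-2 (chr9:41533379-41533822) and 3.9 kb downstream of Mir125b-1 (chr9:41585899-41586374). Of the 26 enhancers in the host gene 11 lay 5′ of Mir125b-1 and 15 lay 3′ of it. By the shorter RefSeq gene the count was 15 in all.

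**Figure D3:**
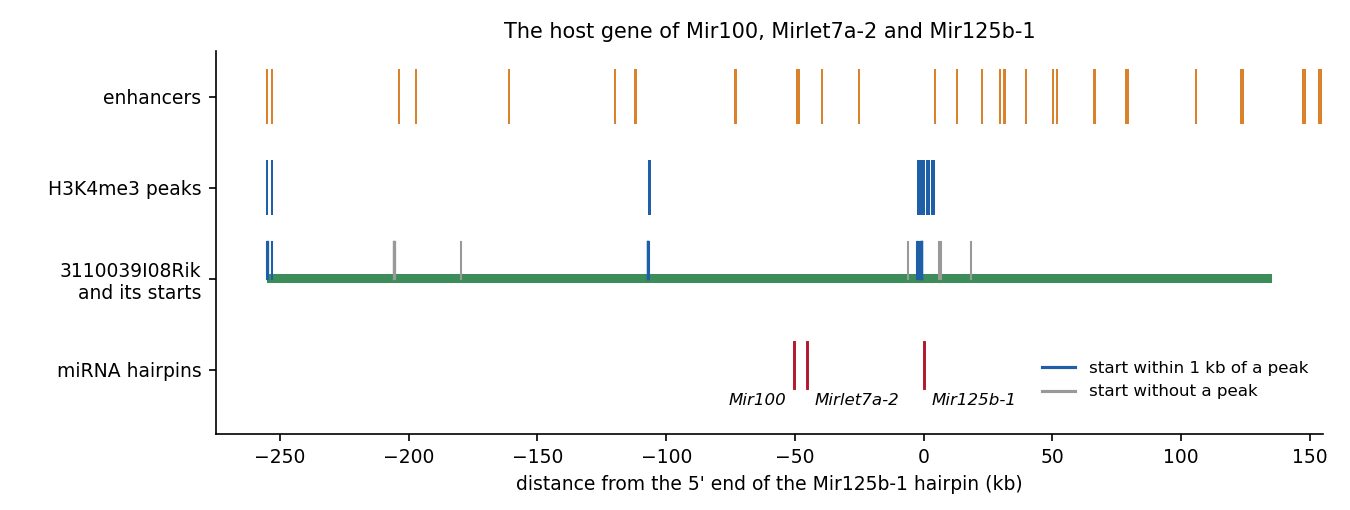
Enhancers (orange), H3K4me3 peaks (blue), the GENCODE gene 3110039I08Rik (green) with its start positions (blue where within 1 kb of a peak, grey elsewhere) and the 3 miRNA hairpins (red), against distance in kb from the 5′ end of the Mir125b-1 hairpin. Marks under 0.8 kb are drawn at that width. The 5 peaks at Mir125b-1 span 6.74 kb, and the 8 starts near -205 kb have no peak.

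Of the 20 long noncoding genes in the interval 5 (25%) had a peak within 1 kb of a start, as did 17.6% of all such genes. They were the host gene, Gm49317 and Gm28119, which share peaks with it, and Gm48565 and Gm48710, unclassified loci of a single exon. The start of Gm28119 also lay 981 bp from the peak of 308 bp, which is not within 1 kb of a host gene start. By RefSeq the count was 3 of 16 (18.8%), namely Mir100hg, Gm51670 and Gm35657, the last by the Ubash3b peak. The other counts here are by GENCODE. Enhancers lay in the bodies of 13 of the 20. Gm35835 (57.25 kb) held 6 enhancers, AC160966.1 (73.1 kb) held 9 and Gm35940, which overlaps AC160966.1 on the opposite strand, held 7. None of these 3 had a peak at a start. Nor did Gm48814, which has 2 enhancers in 3.083 kb, Gm48742 (126.7 kb), which holds 4, or 4930546K05Rik (32.64 kb), which reaches past the right edge of the interval and holds 4, of which 2 lie in the interval.

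The lists met at few places. Of the 63 enhancers 7 (11.1%, interval 5.49 to 21.2%) overlapped a peak, beside 7.52% of all enhancers. Of the 18 peaks 7 (38.9%, interval 20.3 to 61.4%) overlapped an enhancer, beside 10.3% of all peaks. None of the 5 peaks at coding starts did, while 3 of the 6 at noncoding starts and 4 of the 7 others did. Enhancers were defined outside 1 kb of known promoters, which left peaks at coding starts little room to overlap one. Of all peaks 65.4% were centred within 1 kb of a coding start, beside 27.8% here. The shares of 38.9% and 10.3% therefore do not compare like sets of peaks. The narrow peaks shown next lay wholly inside an enhancer, with CpGs in capitals on the plus strand. They are printed because H3K4me3 was called there within regions defined as enhancers.
Peak in 1700063D05Rik, chr9:41207314-41207516 (plus strand): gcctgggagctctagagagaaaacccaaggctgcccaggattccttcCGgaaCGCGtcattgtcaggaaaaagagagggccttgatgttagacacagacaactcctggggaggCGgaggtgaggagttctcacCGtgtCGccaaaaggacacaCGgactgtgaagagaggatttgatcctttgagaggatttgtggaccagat
Peak in Gm48710, chr9:41228997-41229269 (plus strand): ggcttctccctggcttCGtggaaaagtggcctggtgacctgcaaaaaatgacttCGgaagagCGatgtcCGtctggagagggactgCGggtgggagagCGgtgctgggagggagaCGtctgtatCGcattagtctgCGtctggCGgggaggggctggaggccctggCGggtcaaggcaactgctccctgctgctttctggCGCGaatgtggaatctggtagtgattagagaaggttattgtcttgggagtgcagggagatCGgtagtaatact
Peak in the widest enhancer, chr9:41951340-41951610 (plus strand): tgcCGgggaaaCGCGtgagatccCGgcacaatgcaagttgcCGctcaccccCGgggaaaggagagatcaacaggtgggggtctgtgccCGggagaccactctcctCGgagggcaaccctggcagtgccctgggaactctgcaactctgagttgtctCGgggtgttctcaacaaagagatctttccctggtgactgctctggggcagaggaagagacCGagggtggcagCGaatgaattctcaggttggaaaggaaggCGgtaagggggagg
The first lay in an intron of 1700063D05Rik, 1278 bp from a start, with 7 CpGs. The second lay in the exon of Gm48710, 251 bp from its start, with 14 CpGs. The third lay in the widest enhancer, 60.9 kb from a noncoding start and 23.1 kb from a coding one, with 12 CpGs and a GC content of 60.1%. Of the other 4 peaks on enhancers, chr9:41273219-41274253 (1035 bp) enclosed a whole enhancer of 721 bp in no gene, 44.9 kb from the nearest noncoding start and 112 kb from Ubash3b. A pair lay at the most 5′ host starts, and the last, chr9:41585802-41586129, was the outermost of the Mir125b-1 group. When the peak had to cover at least 50% of the enhancer, 4 of the 7 enhancers remained.

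Base composition varied among these regions. The enhancers had a median GC content of 47.5% and a median CpG ratio of 0.203, beside 48.2% and 0.195 over all enhancers. The 7 on a peak had a median CpG ratio of 0.352 (range 0.181 to 0.488) and the 56 off a peak 0.193 (range 0 to 0.581), so the groups overlapped. Over all enhancers the medians were 0.426 and 0.185. The widest enhancer held 72 CpGs. Peaks at coding starts had a median CpG ratio of 0.665, those at noncoding starts 0.357 and the others 0.416. Repeat-masked sequence made up a median of 8.48% of an enhancer, beside 9.23% over all.

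**Figure D4:**
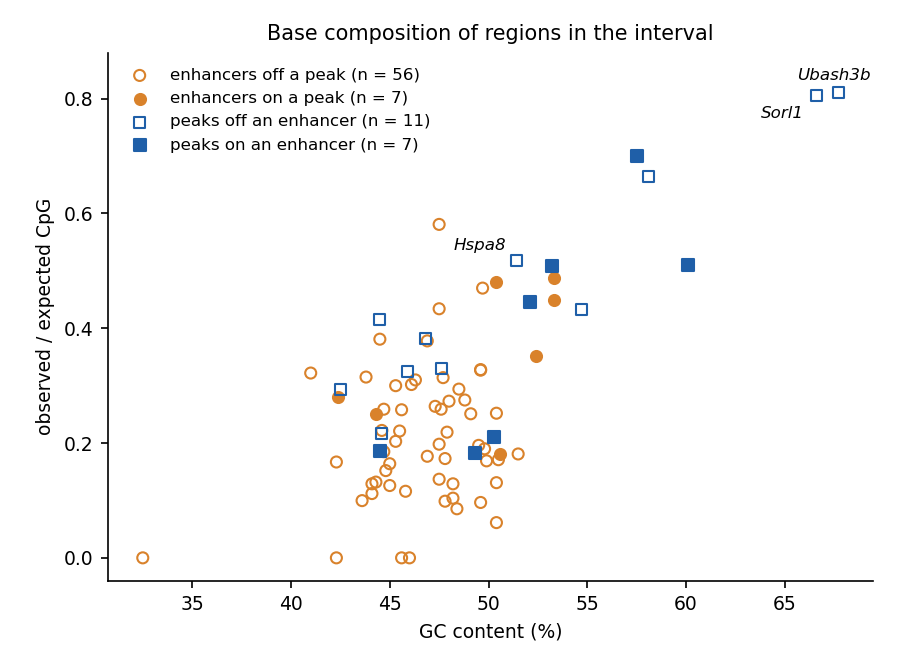
Ratio of observed to expected CpGs (y axis) against GC content in percent (x axis) for the 63 enhancers (orange circles) and 18 peaks (blue squares) of the interval, filled where an enhancer and a peak overlap. The Ubash3b and Sorl1 peaks have the highest ratios, 0.81 and 0.806.

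Short motifs were counted in a window of 300 bases around the centre of each enhancer, on both strands. Of the 63 enhancers 45 were at least 300 bp wide, and for narrower ones the window takes in flanking bases. TGANTCA, bound by AP-1 factors, occurred in 8 of 63 enhancers (12.7%, interval 6.58 to 23.1%), beside 22% of all enhancers. GGAATG, bound by TEAD factors, occurred in 20 (31.7%, interval 21.6 to 44%), beside 22.5%. TGTGGT, bound by RUNX factors, occurred in 14 (22.2%) beside 25%, CANNTG, the E-box, in 52 (82.5%) beside 82.1%, and GGGCGG, the GC box, in 1 (1.59%) beside 6.91%. A match only says that these letters are present in the window, which can be outside a narrow enhancer. The central bases of the enhancer in Sorl1 are given as an example, with the TGANTCA match in capitals on the plus strand.
Enhancer in Sorl1, chr9:42098605-42098904 (plus strand): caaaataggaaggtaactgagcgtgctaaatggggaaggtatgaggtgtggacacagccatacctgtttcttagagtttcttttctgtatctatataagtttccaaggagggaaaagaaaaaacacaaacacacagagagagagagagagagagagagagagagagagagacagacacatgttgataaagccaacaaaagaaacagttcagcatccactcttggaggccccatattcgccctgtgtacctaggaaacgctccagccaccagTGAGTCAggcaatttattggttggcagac

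Other places with related genes or similar enhancer density were compared by their counts. Among the genes for VPS10 receptors, Sorl1, Sort1, Sorcs1, Sorcs2 and Sorcs3 all had 1 peak within 1 kb of a start, of 1098, 1207, 1226, 1515 and 200 bp. The Sorcs3 peak has the smallest width in the list, which 1388 peaks share. In the same order the genes held 1, 2, 6, 11 and 2 enhancers, and per 100 kb Sorl1, at 0.627, lay between Sorcs3, at 0.334, and Sorcs1, at 1.12. Ubash3a, the lymphoid relative of Ubash3b, had 0 peaks and 0 enhancers. The miRNA cluster on chromosome 16, inside the noncoding gene Mir99ahg, had 2 enhancers and 1 peak within 50 kb of Mir125b-2, beside 10 enhancers and 5 peaks for Mir125b-1. There the peak was 955 bp wide and ended 1.47 kb before the hairpin. Mir99ahg as a whole (537.1 kb) had 5 peaks within 1 kb of its starts and 8 enhancers in its body, or 1.49 per 100 kb, beside 4 peaks and 26 enhancers, or 6.67 per 100 kb, for 3110039I08Rik. On chromosome 17, at Spaca6, a peak of 4723 bp contained Mir99b and Mirlet7e and ended 233 bp before Mir125a, and 10 enhancers and 4 peaks lay within 50 kb of Mir125a. The hairpin nearest to a peak was thus of the miR-125 family on chromosomes 9 and 16, while on chromosome 17 Mir99b and Mirlet7e lay within the peak.

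Windows of similar density were set beside the interval's central 1 Mb, chr9:41000001-42000000, with 59 enhancers and 13 peaks. The window chr2:117000001-118000000 held 66 enhancers and 5 peaks, and chr16:24000001-25000000 held 58 and 5. Enhancers overlapping a peak numbered 7, 3 and 0 in that order. Those in noncoding gene bodies alone numbered 44, 21 and 9, those in coding gene bodies 3, 3 and 39. The median distance to a noncoding start was 10.5, 95.7 and 108 kb, and that to a coding start 208, 214 and 68.7 kb. With 1 locus each these differences were not tested.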

How the data were processed

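ChIP-seq was performed by the authors on 12 H3K4me3 libraries and 2 inputs. According to the methods and processing notes, adapters were removed by Trim Galore, BWA placed reads on mm10, SAMtools filtered them, Picard merged replicates and MACS2 called narrow peaks (versions not given in the sources used here). The deposited files used here hold positions (chromosome, start, end) of peaks pooled over samples and of enhancers, with 0 columns of values per sample, so depth is unknown. The authors' list of sites that changed with time was not used here. A single pooled list cannot show in which library or at which time a peak was called.

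Peak starts count from 0 in the file and were converted, so all positions here count from 1. Of 25431 peaks 74 lay outside chromosomes 1 to 19, X and Y and were left out of the background. Regions were assigned by centre, genes by GENCODE M21 (an earlier release than the one the authors named) and RefSeq, both on GRCm38.p6. Coding starts are the 5′ ends of all transcripts of coding genes, and noncoding starts those of long noncoding genes. The host start inside the widest peak and the inner Ubash3b start were read from the genome, the other promoter windows and miRNAs from RefSeq tables. Percentages for all regions are a background with no test. Shares carry Wilson 95% intervals, which cover counting error only. Interval functions were tested on simulated data, with 0 differences from direct counting in 3640 queries.

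Named were all coding genes, hosts, genes with a peak at a start or at least 3 enhancers, all peaks or their groups, the 5 widest enhancers, those on a peak and those nearest to the starts and miRNAs. The members and lists were chosen with earlier results of these data known. Alternatives were other intervals, overlap rules, widths, start sets, windows and joining distances. Python 3.11.15, NumPy 2.4.6, pandas 2.3.3 and SciPy 1.17.1 were used.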

Additional observations from a re-analysis of the deposited data

How the results depend on the processing

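Of 47 alternative values 35 stayed within 1.5 times a count or within the 95% interval of a share or median. Peaks of at least 500 bp numbered 10. With RefSeq transcripts, 24 enhancers lay in no gene, the median distance was 144.5 kb to a coding and 22.4 kb to a noncoding start, 2 peaks lay within 1 kb of a noncoding start, and the host gene held 15 enhancers. With 1 TSS per gene, 93.7% of enhancers were nearer to a noncoding start, the median coding distance was 308.3 kb and 2 peaks lay within 1 kb of a coding start. Requiring the peak to cover at least 50% of the enhancer left 4 enhancers on a peak. Joining within 5 kb gave 42 clusters and singles and within 25 kb 17, against 26. Counting small RNA genes as noncoding, an alternative chosen after seeing the data, moved neither value it was applied to beyond its interval. Widths and counts depend on the peak caller's threshold, which positions do not show. No paired analysis was possible because neither file has values per sample.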
